A study of Homo sapiens with 12 samples.

Results

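The 33 genes described here encode the enzymes of cholesterol and fatty acid synthesis and the sterol-regulated transcription system that controls them. They were taken by gene symbol from a list of pathway members whose rule names no measured value, though the list was drawn up with earlier results of these data known. All 33 were found among the 60609 genes in the count files of the RNA-seq experiment. K562, an established human line derived from the blast crisis of a chronic myeloid leukemia, was treated for 48 h with DMSO (3 libraries) or with FT671 at 10 μM (3 libraries), a compound that inhibits USP7, an enzyme that trims ubiquitin from many proteins. All 6 libraries came from the same line, and the study describes the replicates as independent experiments, so p-values measure the spread between such experiments in K562 alone. ChIP libraries for histone marks from the same study were not analysed here.

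Library totals ran from 5320245 to 14250500 counts in the DMSO group and from 4555220 to 11437804 counts in the FT671 group. A floor of 3 counts corresponds to between 0.211 and 0.659 CPM (read counts scaled to the same total in every library) and covers counting error only, because reads that carry no molecular identifier can be copies of a molecule. DMSO replicate 3 stood apart from the other DMSO libraries, at a chi-square of 7.55 and 8.73 per degree of freedom against them, compared with 2.94 between DMSO replicates 1 and 2. Of 16 erythroid genes known from K562, 15 passed the filter for low counts, and their summed expression was 1506 to 1525 CPM in DMSO and 1317 to 1367 CPM after FT671. Of 9 lymphoid and 9 myeloid genes, 2 of each passed the filter, with sums of 19.0 to 23.7 and 59.0 to 62.9 CPM in DMSO and of 26.7 to 33.5 and 76.8 to 79.4 CPM after FT671. The lymphoid genes CD2 and MS4A1 and the myeloid genes S100A8, S100A9 and ELANE had 0 counts in every library. Mitochondrially encoded genes held 2.59% to 2.82% of the counts in DMSO and 1.47% to 1.76% after FT671, and the part of these shifts in the results below was not tested.

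Animal cells build cholesterol from acetyl-CoA through mevalonate, farnesyl pyrophosphate, squalene and lanosterol, and they build fatty acids from the same acetyl-CoA through malonyl-CoA. Both routes are transcribed under the sterol regulatory element binding proteins (SREBPs), which are made as precursors in the membrane of the endoplasmic reticulum. The escort protein SCAP carries a precursor to the Golgi, where proteases release its active part, and INSIG proteins hold SCAP back when sterols are plentiful. Dividing leukemia cells draw on these routes for membranes.

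Most enzymes of both routes (18 of 27) were expressed at a higher level after FT671, while the genes for the SREBP precursors and for SCAP were expressed at a lower level. At an adjusted p of 0.05 (edgeR's quasi-likelihood test, Benjamini-Hochberg adjustment over 13895 genes), 20 of the 33 genes (60.6%) were higher, against 23.6% of all genes tested. In the other direction 5 of 33 (15.2%) were lower, against 26.5% of all genes tested. Their median log2 fold change was 0.35 (range −0.50 to 1.51), beside a median of −0.01 over all genes tested. Low counts removed none of the 33 genes from the test. In these bulk data a difference in the number of cells of a kind and a difference in RNA per cell cannot be told apart.

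**Figure D1:**
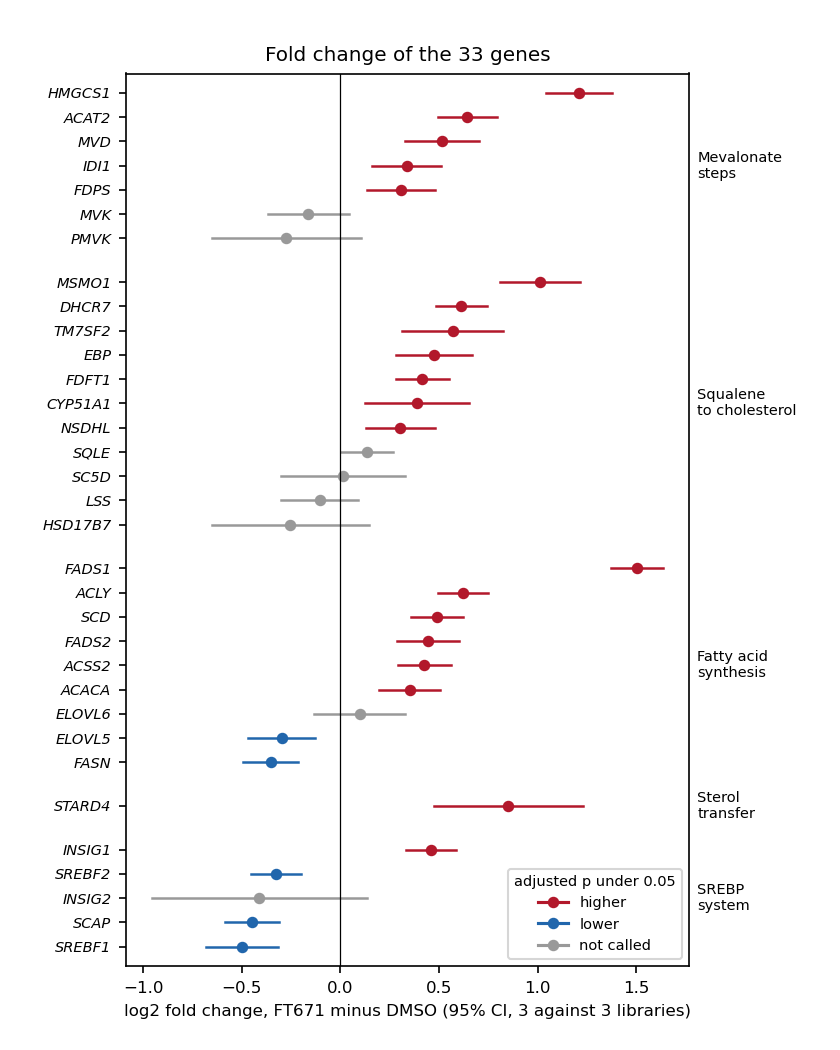
Log2 fold change of each of the 33 genes, FT671 minus DMSO, grouped by role and coloured by the call at an adjusted p of 0.05. Lines are 95% intervals from 3 against 3 libraries by a normal approximation, somewhat narrower than edgeR's test allows. The enzyme groups lie mainly to the right of 0 and are led by FADS1 (1.51), HMGCS1 (1.21) and MSMO1 (1.01), while SREBF1, SCAP and SREBF2 lie to the left.

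At the stricter adjusted p of 1e-05, 5 of the 33 genes were higher (1.79% of all genes tested) and 0 were lower (4.13% of all genes tested). The 5 genes were FADS1, HMGCS1, MSMO1, ACLY and DHCR7. That the count of lower genes was 0 depended on the method, since DESeq2's Wald test called 1, edgeR without the filter on low counts called 2 and edgeR without DMSO replicate 3 called 3. At an unadjusted p under 0.05, 5 genes were lower in edgeR's test. The count of 5 higher genes was 12 without DMSO replicate 3 and 2 without any 1 of the other 5 libraries. At 0.05, 17 of the 20 higher genes and 4 of the 5 lower genes kept their direction and call under all 16 alternative settings.

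The single libraries, which are the same ones that gave the calls, were also compared between groups. For 21 genes every FT671 library lay above every DMSO library (26.8% of all genes tested), and for 6 genes every FT671 library lay below every DMSO library (30.3% of all genes tested). The 21 genes were the 20 called higher and SQLE, and the 6 were the 5 called lower and MVK. The spread between replicates was small beside most of these shifts, with a median coefficient of variation over the 33 genes of 6.87% in DMSO and 4.68% after FT671. STARD4 had the widest spread in both groups, 28.4% and 25.7%.

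**Figure D2:**
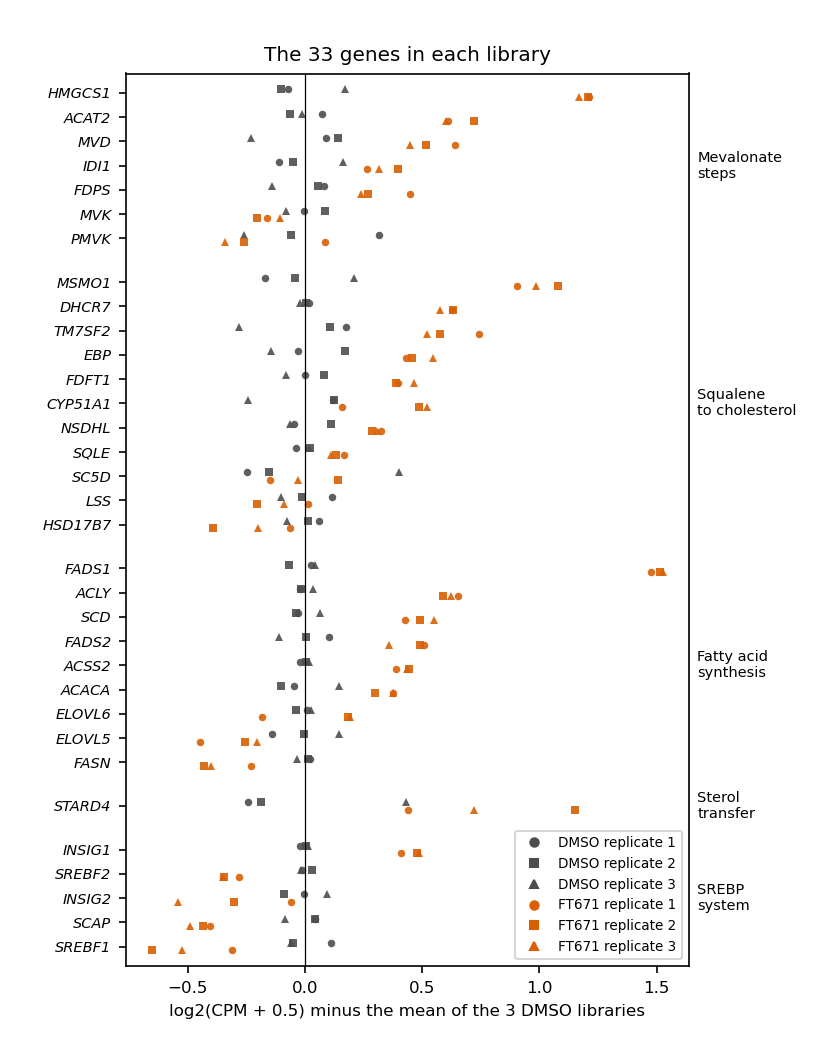
Expression of the 33 genes in each of the 6 libraries, as log2(CPM + 0.5) minus the mean of the 3 DMSO libraries. For FADS1, HMGCS1, MSMO1 and DHCR7 the FT671 libraries form a tight cluster far to the right of DMSO, while for SC5D, PMVK, LSS, ELOVL6 and HSD17B7 the groups overlap.

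Summed over the 33 genes, expression was 6363, 6384 and 6482 CPM in DMSO replicates 1, 2 and 3 and 8815, 8883 and 8996 CPM in FT671 replicates 1, 2 and 3. The genes took 0.635% to 0.659% of all counts in DMSO and 0.871% to 0.880% after FT671, and the groups did not overlap. A single gene made up much of the net rise. FADS1 alone held 56.4% of the net difference of 2489 CPM between the group means, followed by SCD with 17.8% and ACLY with 9.06%. The falls of other genes, such as FASN and SREBF2, are subtracted in that net difference, so these are not shares of the summed rises. Without FADS1 the summed means were 5647 CPM in DMSO and 6732 CPM after FT671.

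**Figure D3:**
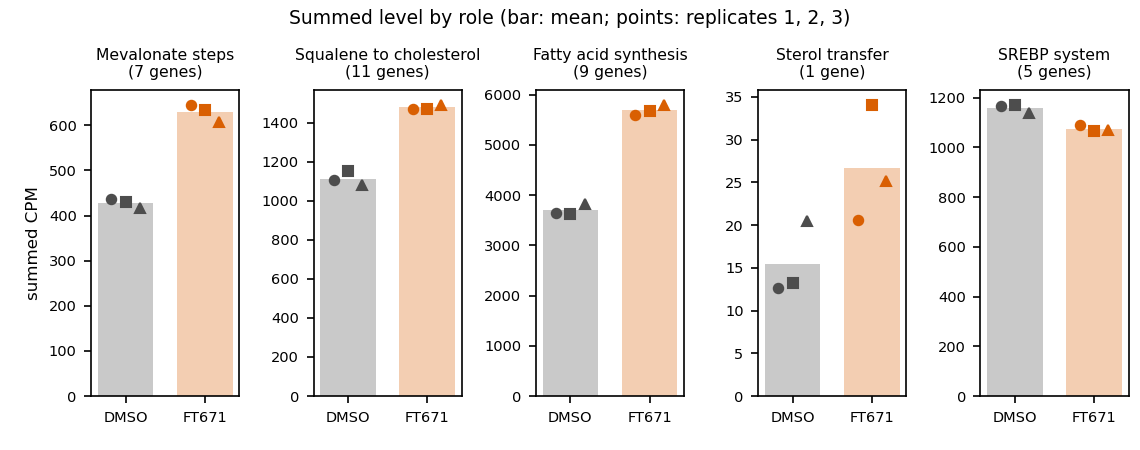
Summed CPM of the genes of each role in each library, with bars at the mean of 3 libraries and all axes starting at 0. The 7 mevalonate genes, the 11 genes from squalene to cholesterol and the 9 fatty acid genes lie higher in every FT671 library, and the 5 genes of the SREBP system lie lower, between 1067 and 1090 CPM against 1138 to 1172 CPM.

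Among the 5 genes of the SREBP system, 3 were lower (60%, against 26.5% of all genes tested) and 1 was higher (20%, near 23.6%). The call was missing for 1. SREBF1, which encodes the SREBP known mainly for fatty acid genes, was expressed at 134.6, 120.3 and 119.4 CPM in DMSO and at 100.4, 79.0 and 86.5 CPM after FT671. No FT671 library reached the lowest DMSO library. Its log2 fold change with its standard error (SE) was −0.50 (SE 0.093, adjusted p = 0.000512 from edgeR), the largest fall among the 33 genes. SREBF1 lies on chromosome 17 from 17810399 to 17837002 (hg38, minus strand) and shares 556 exonic bases with RAI1 on the opposite strand. RAI1 itself had a log2 fold change of −1.60. The strand setting of the counting is not given in the sources used here, so reads from the shared bases cannot be assigned to either gene.

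SREBF2, which encodes the SREBP known mainly for sterol genes, was expressed at 475.3, 489.2 and 474.7 CPM in DMSO and at 395.1, 377.4 and 376.3 CPM after FT671. The libraries of each group were within a narrow band and the bands were well apart. This gave a log2 fold change of −0.33 (SE 0.065, adjusted p = 0.000856 from edgeR). SREBF2 shares 731 exonic bases with SREBF2-AS1 on the opposite strand, which had 73 to 254 counts and a log2 fold change of 0.30 (adjusted p = 0.108 from edgeR).

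SCAP, the escort of both precursors, was expressed at 252.6, 252.2 and 231.1 CPM in DMSO and at 184.8, 181.5 and 174.5 CPM after FT671. SCAP had a log2 fold change of −0.45 (SE 0.070, adjusted p = 0.000137 from edgeR). SCAP shares no exonic bases with another gene in GENCODE release 44. It was the only one of the 3 lower genes of the SREBP system with that property.

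Of the INSIG genes, 1 was called, and it was higher. INSIG1, a retention protein that is itself a well-known SREBP target, was expressed at 302.3, 307.5 and 309.6 CPM in DMSO and at 407.1, 426.9 and 429.8 CPM after FT671. Its log2 fold change was 0.46 (SE 0.065, adjusted p = 5.51e-05 from edgeR), and the gap between the groups exceeded the range within either of them. INSIG2, the related protein, was expressed at a low level, at 2.56, 2.38 and 2.77 CPM in DMSO and at 2.44, 1.99 and 1.61 CPM after FT671. These values rest on 11 to 37 counts in a library, and the groups overlap. The log2 fold change of INSIG2 was −0.41 with a 95% interval of −0.96 to 0.14, so that a fall was not detectable at this depth.

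The promoters of the genes were searched for 3 short motifs on both strands, in windows of 300 bases (250 before to 50 after a transcription start) taken from RefSeq on GRCh38.p14. Windows were found for 29 of the 33 genes, 40 windows in all because some genes have several starts. ACAT2, FDFT1, SQLE and FASN had none. Some windows of the same gene overlap, such as those of ACLY, so that a site can be counted more than once. The motifs were TCACNCCAC, the core of the classical sterol regulatory element, CCAAT, the box read by NF-Y, and GGGCGG, the GC box read by SP1. NF-Y and SP1 are known partners of SREBPs at sterol genes. For both precursor genes and the genes with the 3 largest rises a window is shown, read 5′ to 3′ on the strand of the gene, which is plus for SREBF2 and MSMO1 and minus for SREBF1, HMGCS1 and FADS1. Capitals mark a match to any of the 3 motifs or to its reverse complement.
SREBF2 chr22:41832855-41833154: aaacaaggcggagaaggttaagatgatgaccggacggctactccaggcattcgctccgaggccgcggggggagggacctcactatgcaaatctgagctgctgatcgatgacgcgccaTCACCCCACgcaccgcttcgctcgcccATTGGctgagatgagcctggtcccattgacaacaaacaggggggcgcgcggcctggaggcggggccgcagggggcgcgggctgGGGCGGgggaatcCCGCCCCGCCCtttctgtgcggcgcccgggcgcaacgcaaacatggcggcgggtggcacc
SREBF1 chr17:17836937-17837236: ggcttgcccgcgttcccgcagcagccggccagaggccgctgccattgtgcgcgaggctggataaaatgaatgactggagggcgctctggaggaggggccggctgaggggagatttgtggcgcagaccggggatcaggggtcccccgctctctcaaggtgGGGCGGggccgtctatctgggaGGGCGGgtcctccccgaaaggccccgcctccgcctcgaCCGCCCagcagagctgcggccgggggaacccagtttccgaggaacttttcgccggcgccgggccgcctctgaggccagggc
HMGCS1 chr5:43313363-43313662: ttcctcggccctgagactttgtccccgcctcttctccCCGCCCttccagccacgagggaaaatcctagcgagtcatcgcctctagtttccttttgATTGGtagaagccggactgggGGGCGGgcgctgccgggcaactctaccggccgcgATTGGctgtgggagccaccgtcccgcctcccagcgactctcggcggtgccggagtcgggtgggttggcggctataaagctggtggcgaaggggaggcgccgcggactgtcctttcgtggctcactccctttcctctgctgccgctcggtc
MSMO1 chr4:165327419-165327718: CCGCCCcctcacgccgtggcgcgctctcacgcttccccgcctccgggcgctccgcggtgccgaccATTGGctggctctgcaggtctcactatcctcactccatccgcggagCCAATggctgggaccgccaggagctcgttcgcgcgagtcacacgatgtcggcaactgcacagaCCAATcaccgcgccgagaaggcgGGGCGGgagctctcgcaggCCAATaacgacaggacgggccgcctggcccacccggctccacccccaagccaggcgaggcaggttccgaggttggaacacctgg
FADS1 chr11:61816954-61817253: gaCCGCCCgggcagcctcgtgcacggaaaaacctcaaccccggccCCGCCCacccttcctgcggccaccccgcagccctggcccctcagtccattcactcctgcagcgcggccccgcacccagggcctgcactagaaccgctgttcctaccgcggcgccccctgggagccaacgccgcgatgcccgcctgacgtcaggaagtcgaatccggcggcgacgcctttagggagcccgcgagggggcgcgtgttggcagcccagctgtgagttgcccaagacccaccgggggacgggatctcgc

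The sterol element core was found in 1 of the 40 windows, that of SREBF2, as TCACCCCAC on chromosome 22 from 41832972 to 41832980, beginning 133 bases before the start. In all 35116 windows of the same length the share was 1.13%. The CCAAT box was found in 26 of the 40 windows (65.0%) against 34.6% of all windows and 34.9% of the windows of tested genes. By gene, it was in at least 1 window of 16 of the 18 genes with windows that were higher, 2 of 4 that were lower and 4 of 7 that were not called. These counts cannot be set against the shares of windows, because some genes have several windows. The share by gene over all genes was not computed. MSMO1 held 4 CCAAT matches and HMGCS1 held 2 in the window shown, while FADS1 and SREBF1 held 0. HMGCS1 has a further window from another start, chr5:43313132-43313431, with 0 CCAAT matches and 2 GC boxes, which is not shown. The GC box was found in 35 of the 40 windows (87.5%), against 45.0% of all windows and 66.9% of the windows of tested genes. Neighbouring matches shared bases in 8 pairs among 145 matches, with a site in overlapping windows counted in each. A match is a description of the letters in these windows, and the absence of the sterol core says only that these letters were not in them.

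Among the 7 genes of the mevalonate steps, 5 were higher (71.4%, against 23.6% of all genes tested) and 0 were lower (against 26.5%). The call was missing for 2, and the median log2 fold change of the group was 0.34. ACAT2, the cytosolic thiolase that joins acetyl-CoA units, was expressed at 85.2, 77.3 and 80.2 CPM in DMSO and at 123.7, 133.5 and 122.9 CPM after FT671. ACAT2 had a log2 fold change of 0.64 (SE 0.077, adjusted p = 1.33e-05 from edgeR). ACAT2 shares 454 exonic bases with TCP1 on the opposite strand, which had a log2 fold change of 0.38.

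HMGCS1, the cytosolic HMG-CoA synthase, showed the largest rise of the sterol route. It was expressed at 58.9, 57.6 and 69.7 CPM in DMSO and at 143.9, 143.4 and 139.6 CPM after FT671, a 2.31-fold difference. The log2 fold change was 1.21 (SE 0.086, adjusted p = 1.40e-07 from edgeR). DMSO replicate 3 was the highest of its group, and leaving out each library in turn kept the log2 fold change between 1.17 and 1.28. HMGCS1 lies on chromosome 5 from 43287470 to 43313512 (hg38, minus strand). An unnamed lncRNA gene, ENSG00000261604, overlaps 2497 of its exonic bases on the opposite strand, with 50 to 124 counts in a library and a log2 fold change of 1.28.

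Further along, the increases were smaller. MVD, which decarboxylates mevalonate pyrophosphate to isopentenyl pyrophosphate, was expressed at 97.9, 101.5 and 78.4 CPM in DMSO and at 143.7, 131.9 and 125.6 CPM after FT671, a log2 fold change of 0.51 (adjusted p = 0.000572 from edgeR). IDI1, the isomerase of isopentenyl pyrophosphate, was expressed at 63.0, 65.6 and 76.2 CPM in DMSO and at 81.7, 89.7 and 84.9 CPM after FT671, a log2 fold change of 0.34 (adjusted p = 0.00676 from edgeR). DMSO replicate 3 was the lowest of its group for MVD and the highest for IDI1. FDPS, which builds farnesyl pyrophosphate, had a log2 fold change of 0.31 (adjusted p = 0.00965 from edgeR), and its call was lost without FT671 replicate 1 (adjusted p = 0.0516). FDPS shares 693 exonic bases with RUSC1-AS1, whose log2 fold change was 0.33, while its annotated pseudogenes held 9 counts in all over the 6 libraries.

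The kinases between them were not called. MVK, mevalonate kinase, was expressed at 28.3, 30.1 and 26.8 CPM in DMSO and at 25.3, 24.5 and 26.4 CPM after FT671. Its log2 fold change was −0.16 (95% interval −0.37 to 0.042). PMVK, phosphomevalonate kinase, had −0.28 (95% interval −0.65 to 0.10) from 7.58 to 11.6 CPM in DMSO and 7.15 to 9.77 CPM after FT671. For both kinases the interval leaves out a rise of the size seen for HMGCS1, ACAT2, MVD and IDI1.

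Of the 11 genes from squalene to cholesterol, 7 were higher (63.6%, against 23.6% of all genes tested) and 0 were lower (against 26.5%). The call was missing for 4, and the median log2 fold change of the group was 0.39. FDFT1, squalene synthase, which commits farnesyl pyrophosphate to sterols, was expressed at 490.2, 518.1 and 464.2 CPM in DMSO and at 644.9, 642.8 and 676.9 CPM after FT671. This was a log2 fold change of 0.42 (adjusted p = 0.000205 from edgeR). SQLE, squalene epoxidase, an oxygen-requiring and rate-limiting step, differed little. Its expression was 181.8, 189.5 and 189.3 CPM in DMSO and 209.7, 204.6 and 201.6 CPM after FT671.

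Thus every FT671 library lay above every DMSO library for SQLE, but by little. The log2 fold change of SQLE was 0.14 (95% interval 0.0042 to 0.27, adjusted p = 0.108 from edgeR), which did not pass 0.05. It passed after corrections for gene length (adjusted p = 0.0255) and for GC content (adjusted p = 0.0318), at log2 fold changes of 0.18 and 0.16. LSS, lanosterol synthase, had −0.11 (95% interval −0.30 to 0.091), and its sign turned after the gene length correction (log2 fold change 0.0115).

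The steps that trim lanosterol included the second large rise. MSMO1, the methylsterol monooxygenase that oxidizes methyl groups on the sterol ring after the step of CYP51A1, was expressed at 37.6, 41.1 and 49.0 CPM in DMSO and at 79.7, 89.9 and 84.4 CPM after FT671. This was a 2.02-fold difference, a log2 fold change of 1.01 (SE 0.10, adjusted p = 3.36e-06 from edgeR). It lies on chromosome 4 from 165327667 to 165343164 (hg38, plus strand). NSDHL, the dehydrogenase that follows it in the same demethylation, was expressed at 47.8, 53.3 and 47.1 CPM in DMSO and at 62.0, 60.3 and 61.2 CPM after FT671, a log2 fold change of 0.30 (adjusted p = 0.0116 from edgeR). HSD17B7, the reductase that completes it, had −0.25 (95% interval −0.65 to 0.14) from 20 to 74 counts in a library, beside 36 counts over all libraries for its pseudogene HSD17B7P2. Of the 3 enzymes of this reaction series, 2 were called higher and 1 was not, and the difference between them was not tested.

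The calls for a pair of these genes were not stable. NSDHL lost its call without the filter on low counts (adjusted p = 0.0590) and without DMSO replicate 1 (adjusted p = 0.0585). CYP51A1, the demethylase of lanosterol, had a log2 fold change of 0.39 (adjusted p = 0.0267 from edgeR). Its libraries were at 19.87, 19.97 and 15.34 CPM in DMSO and at 20.4, 25.8 and 26.5 CPM after FT671, and FT671 replicate 1 was close to DMSO. The call for CYP51A1 was lost with DESeq2's Wald test (adjusted p = 0.0664), without FT671 replicate 2 (adjusted p = 0.0864) and without FT671 replicate 3 (adjusted p = 0.149).

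The reductases and the isomerase among the genes from squalene to cholesterol were mostly higher, wherever in the route they act. DHCR7, the last reductase on the way to cholesterol, was at 186, 184.1 and 181 CPM in DMSO and at 283.8, 285.2 and 274.2 CPM after FT671, among the most even increases. DHCR7 had a log2 fold change of 0.61 (SE 0.066, adjusted p = 5.14e-06 from edgeR). TM7SF2, a sterol reductase, rose from 20.2, 19.2 and 14.6 CPM in DMSO to 30.2, 26.9 and 25.8 CPM after FT671, a log2 fold change of 0.57 (adjusted p = 0.00236 from edgeR). EBP, the sterol isomerase, rose from 48.4, 55.8 and 44.7 CPM in DMSO to 66.9, 68.0 and 72.5 CPM after FT671, a log2 fold change of 0.47 (adjusted p = 0.00115 from edgeR). In each of these 3 genes the FT671 libraries lay clear of DMSO. SC5D, the sterol desaturase just before DHCR7, showed no detectable difference, with a log2 fold change of 0.013 (95% interval −0.30 to 0.33). DMSO replicate 3 was high for SC5D, at 28.8 CPM against 18.2 and 19.5 CPM in DMSO replicates 1 and 2, and the log2 fold change was 0.19 without it.

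Of the 9 fatty acid genes, 6 were higher (66.7%, against 23.6% of all genes tested) and 2 were lower (22.2%, near 26.5%). The call was missing for 1, and the median log2 fold change of the group was 0.43. The suppliers of acetyl-CoA were both higher. ACLY, ATP citrate lyase, was expressed at 412.1, 413.5 and 428.5 CPM in DMSO and at 657.8, 628.4 and 644.6 CPM after FT671. Its log2 fold change was 0.62 (SE 0.064, adjusted p = 3.62e-06 from edgeR). ACSS2, which makes acetyl-CoA from acetate, was expressed at 118.6, 120.7 and 121.8 CPM in DMSO and at 157.7, 164 and 163 CPM after FT671, a log2 fold change of 0.43 (adjusted p = 0.000175 from edgeR).

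The next steps went in opposite directions. ACACA, acetyl-CoA carboxylase, which makes malonyl-CoA, was expressed at 158.1, 152.2 and 180.6 CPM in DMSO and at 211.9, 200.6 and 211.7 CPM after FT671, a log2 fold change of 0.35 (adjusted p = 0.00197 from edgeR). FASN, the synthase that turns malonyl-CoA into palmitate, was expressed at 533.0, 530.3 and 512.4 CPM in DMSO and at 447.3, 390.2 and 397.4 CPM after FT671. FASN had a log2 fold change of −0.35 (SE 0.072, adjusted p = 0.00101 from edgeR). Neither gene overlapped between groups, and both kept their direction and call under all 16 alternative settings. FASN was the only enzyme of the core route from citrate to palmitate (ACLY, ACACA, FASN) that was lower.

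Neither elongase was called higher. ELOVL5, which lengthens polyunsaturated fatty acids, was expressed at 430.9, 473.3 and 524.8 CPM in DMSO and at 348.2, 397.8 and 412.5 CPM after FT671. It had a log2 fold change of −0.30 (adjusted p = 0.0105 from edgeR), and its call was lost without FT671 replicate 1 (adjusted p = 0.0643), the library with the lowest value. ELOVL6, which lengthens palmitate, was expressed at 24.4 to 25.5 CPM in DMSO and at 22.0, 28.5 and 28.7 CPM after FT671, a log2 fold change of 0.098 (95% interval −0.13 to 0.33). The FT671 libraries of ELOVL6 thus lay on both sides of DMSO.

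The 3 desaturases all rose. FADS1, which adds a double bond to polyunsaturated fatty acids, was expressed at 775.9, 728.2 and 785.8 CPM in DMSO and at 2122, 2178 and 2200 CPM after FT671. This 2.84-fold difference was the largest rise among the 33 genes, with a log2 fold change of 1.51 (SE 0.067, adjusted p = 4.82e-09 from edgeR). Every library left out in turn kept the log2 fold change between 1.48 and 1.52. Of all genes tested, 3.91% had a log2 fold change of at least 1 together with an adjusted p under 0.05. FADS1 lies on chromosome 11 from 61799627 to 61829318 (hg38, minus strand).

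FADS2, the desaturase of an earlier step, is annotated on the plus strand from 61792980 to 61867354, a span that holds that of FADS1, and shares 490 exonic bases with it. It was expressed at 112.9, 105.4 and 97.4 CPM in DMSO and at 149.5, 147.8 and 135 CPM after FT671, a log2 fold change of 0.44 (adjusted p = 0.000431 from edgeR). Reads of the shared bases cannot be told apart without the strand setting, and FADS1 had many times the counts of FADS2. FADS2 also shares 49 exonic bases with FEN1 on its own strand, which had a log2 fold change of −0.73.

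SCD, the stearoyl-CoA desaturase that makes oleate, was expressed at 1075, 1069 and 1148 CPM in DMSO and at 1474, 1540 and 1608 CPM after FT671. The groups were far apart, with a log2 fold change of 0.49 (SE 0.068, adjusted p = 4.72e-05 from edgeR).

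STARD4, a soluble carrier that moves cholesterol between membranes, was expressed at 12.7, 13.2 and 20.5 CPM in DMSO and at 20.7, 34.1 and 25.2 CPM after FT671. DMSO replicate 3 and FT671 replicate 1 almost met. The log2 fold change was 0.85 (SE 0.19, adjusted p = 0.00219 from edgeR) and lay between 0.66 and 1.04 when each library was left out in turn. STARD4-AS1, which shares 124 exonic bases with it on the opposite strand, had 7 to 41 counts and a log2 fold change of 1.35.

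Levels were compared between genes as CPM per kb of exon sequence, with the length taken over all annotated exons of a gene together. Genes with long exons that are seldom used get lower values this way, so the order is approximate. In DMSO, SCD was the highest at 209 ± 8.43 CPM per kb (SD, n = 3), followed by ELOVL5 at 125 ± 12.3, FDFT1 at 96.6 ± 5.31, INSIG1 at 84.0 ± 1.04, ACLY at 80.3 ± 1.74 and FADS1 at 74.6 ± 3.01 CPM per kb. Among these 6 genes no interval of mean ± SD overlapped that of a neighbour in the order. Further down many did, such as those of NSDHL at 24.8 ± 1.70, FDPS at 23.3 ± 1.90 and ACSS2 at 22.9 ± 0.310 CPM per kb. After FT671, SCD stayed first at 294 ± 12.8 and FADS1 moved from rank 6 to rank 2, at 212 ± 3.97 CPM per kb. HMGCS1 moved from rank 23 to rank 19 and MSMO1 from rank 20 to rank 15. SCAP moved from rank 10 to rank 17. INSIG2 and HSD17B7 were the lowest of the 33 genes in both groups, at 0.651 and 1.02 CPM per kb in DMSO.

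**Figure D4:**
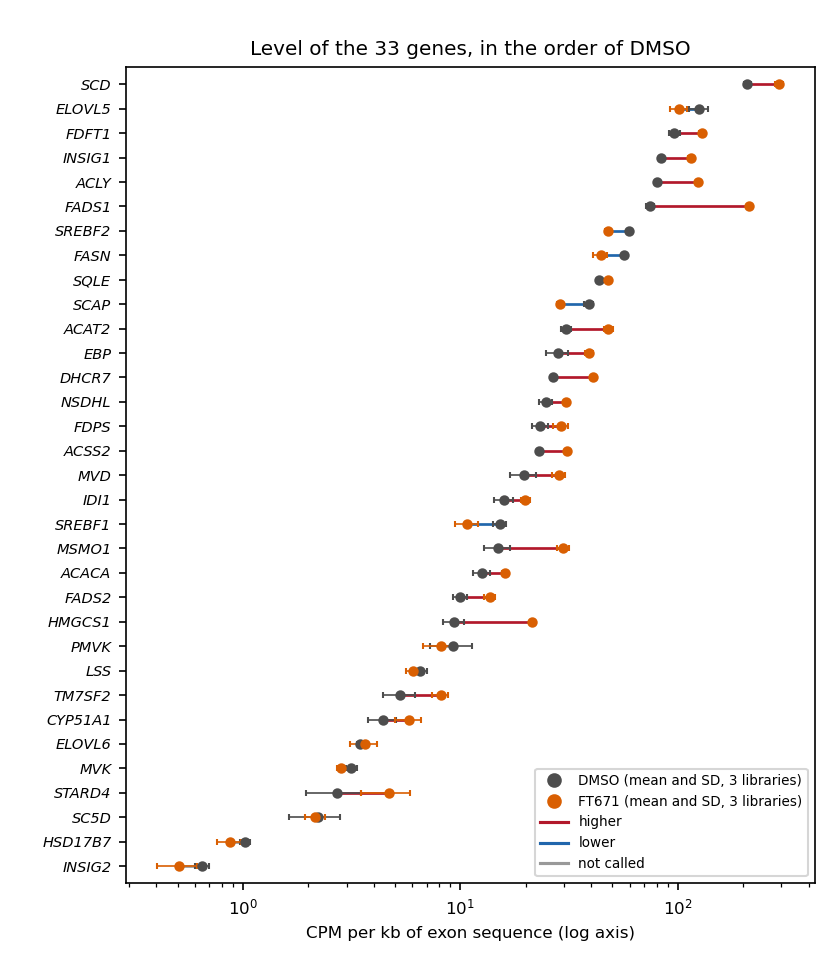
Level of each of the 33 genes in CPM per kb of exon sequence on a log axis, as mean and SD of 3 libraries per group, in the order of the DMSO levels. The order spans from 209 CPM per kb for SCD to 0.651 CPM per kb for INSIG2, and FADS1 shows the longest shift, from 74.6 to 212 CPM per kb.

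In all, 16 of the 33 genes share exonic bases with another annotated gene, so that part of their reads is uncertain. On the same strand, CYP51A1 shares 2844 of its 4171 exonic bases with ENSG00000285772, and EBP shares 644 of its 1768 with ENSG00000286268. Both of these unnamed genes had 0 counts in every library. ACLY shares 156 bases with ENSG00000274630 on the opposite strand, which had 195 to 533 counts and a log2 fold change of 0.63. Among further pairs, IDI1 shares 643 bases with IDI2-AS1 (log2 fold change −0.59), CYP51A1 shares 108 with AKAP9 (0.56), MVK shares 225 with MMAB (0.039) and TM7SF2 shares 18 with VPS51 (−0.56). Those called higher or lower without any such overlap included SCAP, FASN, SCD, INSIG1, MSMO1, DHCR7, ACACA, ACSS2, NSDHL, MVD and ELOVL5.

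Genes that work next to these routes were taken from 3 further written lists. Of 26 genes for the transport, cleavage and turnover of SREBP and its partners, all tested, 3 were higher (11.5%, against 23.6% of all genes tested) and 13 were lower (50%, against 26.5%). The median log2 fold change was −0.25 beside −0.01 over all genes tested. At 1e-05, 2 were higher (7.69%, against 1.79% of all genes tested) and 5 were lower (19.2%, against 4.13%). MBTPS1, the first protease that cleaves SREBP in the Golgi, had a log2 fold change of −0.88, and SEC24D, a cargo adaptor of the COPII coat that carries SCAP, had −1.07. SYVN1 and VCP, a ubiquitin ligase and the segregase of protein degradation at the endoplasmic reticulum, had −1.07 and −1.21. UBE2G2, a ubiquitin-conjugating enzyme, and ERLIN2, a membrane scaffold, had 0.92 and 0.76. The list thus held members on both sides, and what the fall of each means for the amount of active SREBP was not measured.

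The other lists held genes called in both directions. The sterol handling list held genes for sterol uptake, storage and transport and also genes of synthesis and regulation, such as LBR, GGPS1 and NR1H2. Of its 30 genes, 22 were tested, 7 were higher and 7 were lower (31.8% each), near the 23.6% and 26.5% of all genes tested. The median log2 fold change was −0.063. The count of higher genes was 4 without DMSO replicate 1, without FT671 replicate 2 or without FT671 replicate 3. SCARB1, the receptor for high-density lipoprotein, was past 1e-05 with a log2 fold change of 0.75. Of 43 genes for other lipid synthesis, 37 were tested, 9 were higher (24.3%, near the 23.6% of all genes tested) and 14 were lower (37.8%, against 26.5%), with a median of −0.14. FADS3, the relative of FADS1 and FADS2 in the same gene cluster, had 1.04, and SLC25A1, the mitochondrial carrier that exports the citrate used by ACLY, had 0.70. ACSL1, which activates fatty acids, had −1.10, PCYT1A, the regulatory enzyme of phosphatidylcholine synthesis, had −0.94, and AGPAT3, an acyltransferase of glycerolipid synthesis, had −0.88. With FADS3 included, the desaturases FADS1, FADS2, FADS3 and SCD were all higher after FT671.

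**Figure D5:**
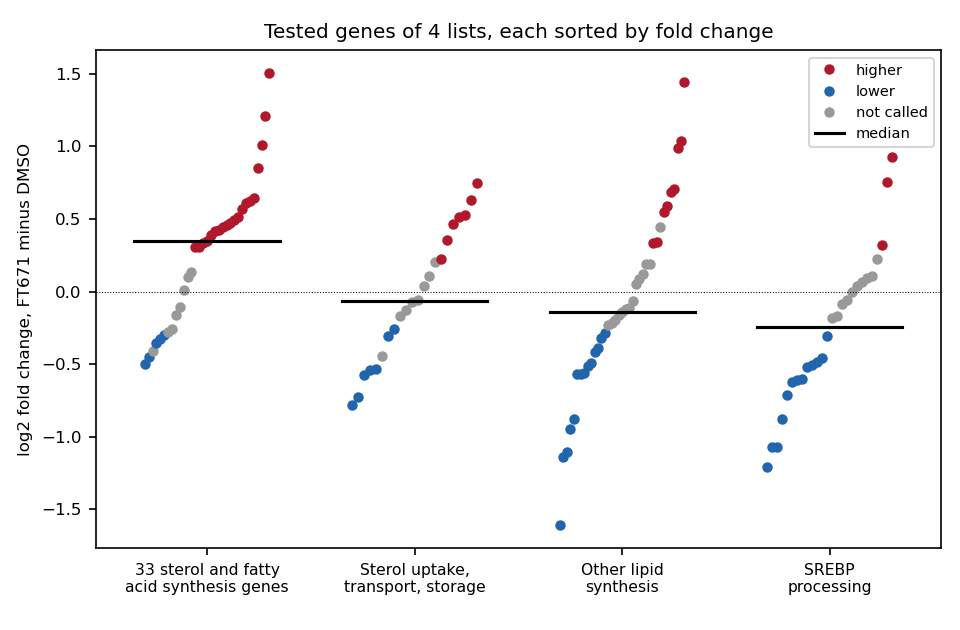
Log2 fold changes of the tested genes of 4 lists, each sorted by value, with the median as a line and colours for the call at an adjusted p of 0.05. The median of the 33 genes is 0.35, while the medians for sterol handling, other lipid synthesis and SREBP processing are −0.063, −0.14 and −0.25. The axis names the sterol handling list as sterol uptake, transport and storage.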

How the data were processed

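The RNA of K562 cells was sequenced after 48 h in DMSO (3 libraries) or FT671 (3 libraries, 10 μM). Per the study's methods, ribosomal RNA was removed from total RNA before paired-end sequencing, and the authors aligned reads to hg38 with STAR (two-pass mode). They deposited raw counts per gene and library, without normalization. The version of STAR, the annotation release and the strand setting are not given in the sources used here. Identifiers were matched to GENCODE release 44 (60295 of 60609, and the others held 0.0609% of counts).

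Genes were filtered with filterByExpr (13895 kept), scaled by TMM and compared with edgeR 4.0.16 (quasi-likelihood test, no covariates) in R 4.3.3. Benjamini-Hochberg adjustment ran over all genes tested, with thresholds of 0.05 and 1e-05. CPM used TMM-scaled library sizes, and the loess span for the length and GC corrections was 0.3. The 16 alternatives included DESeq2 1.42.0, other scalings and filters, and each library left out in turn. The fits were tested on simulated data. Motifs were counted in RefSeq promoter windows (GRCh38.p14) in Python 3.11.15. All 33 genes are named. Values per library are given for the SREBP system, for SQLE, HMGCS1, ACACA, FASN and SCD, and for the up to 6 largest rises and falls past 0.05, and for other genes where they show the spread. From other lists up to 4 rises and falls past 1e-05 are named, and also LBR, beside TM7SF2, and examples of what the sterol handling list holds. The members and lists were chosen with earlier results of these data known. A planned comparison of protein sequences was not run, and 1 gene of the other lists is not reported here.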

Additional observations from a re-analysis of the deposited data

How the results depend on the processing

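Over 16 alternatives and 33 genes, 506 of 528 log2 fold changes kept their direction and their side of 0.05. The count of higher genes at 0.05 stayed between 19 and 21 and that of lower genes between 4 and 5. At 1e-05 the counts moved, from 5 higher genes to 10 without the filter on low counts and with DESeq2's Wald test, 12 with the GC correction (with or without the replicate block) and 13 with the gene length correction and replicate block. With each library left out, the count was 2 to 12, the highest without DMSO replicate 3. The count of lower genes, 0, became 2 without the filter and 1 with DESeq2, and 0 to 3 with each library left out. The count of higher genes in the sterol handling list was 4 to 8 with each library left out. The members' median log2 fold change, 0.35, was 0.3720 with DESeq2's size factors, 0.3173 with library totals, 0.3136 without the filter, 0.3838 and 0.3744 with the length correction without and with the block, and 0.3861 and 0.3946 with the GC correction likewise. It was 0.3418 to 0.3713 with each library left out. LSS turned to 0.0115 and 0.0286 with the length correction without and with the block. SC5D, at 0.013, turned to −0.0220 (library totals), −0.0241 (no filter), −0.0039 (DESeq2), −0.0257 (replicate block), −0.0346 and −0.0631 (GC correction without and with block) and lay between −0.1266 and 0.1935 with each library left out. The causes were not tested.

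The labels give both groups the same replicate numbers, but deviations of same-numbered libraries correlated at 0.125, −0.0658 and 0.152 across genes, so the numbers were not taken to pair the samples. With the replicate block, 20 of the 33 genes were higher and 5 lower at 0.05, and 6 were higher at 1e-05.

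Depth limited INSIG2 (11 to 37 counts a library) and HSD17B7 (20 to 74 counts), whose 95% intervals of log2 fold change ran from −0.96 to 0.14 and from −0.65 to 0.14.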
